A study of Caenorhabditis elegans with 4 samples.

Results

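The PALS genes of the nematode Caenorhabditis elegans were followed in first-stage (L1) larvae in which the study set out to deplete a histone mark, H3K36 methylation, and in wild type larvae. Members were taken by name, as every gene of the deposited count table whose symbol starts with pals-, and no measured value entered the choice. There were 36 members among 20392 genes. The annotation names 2 further ones, pals-10 and pals-21, which had no row of counts and were not analysed here.

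Larvae of the first group carried a mutation of met-1 (strain GW1183, genotype met-1-/-), and both they and their parents were fed bacteria for mes-4 RNAi. The name GW1183 mes-4(RNAi) is used for these larvae (in plots, met-1 mes-4(RNAi)). Larvae of the second group were wild type (strain N2) on bacteria with the empty RNAi vector L4440. The parents of both groups had 60 to 65 h on the RNAi bacteria at 20 °C. Embryos taken from them by bleaching hatched during 18 h without food, and the larvae then fed on the same bacteria for 2 h and 30 min. Each group had 2 libraries of total RNA from whole larvae, described as independent biological replicates. There is no group with the mutation alone or the RNAi alone, so the contributions of strain, mutation and RNAi cannot be told apart, and H3K36 methylation itself was not measured in these files.

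MET-1 and MES-4 are the C. elegans enzymes best known for placing methyl groups on H3K36, a mark of transcribed gene bodies. PALS proteins are named after a sequence signature shared with the human ALS2CR12 protein, and the family is much larger in C. elegans than in mammals. Many of its members belong to the intracellular pathogen response (IPR), a set of genes switched on by microsporidia and by the Orsay virus, mainly in the intestine, and also by prolonged heat stress or a blocked proteasome. A few members act as switches of that response. PALS-22 represses it and PALS-25, encoded by the adjacent gene, is needed for its activation when PALS-22 is lost. PALS-17 is a second repressor, and PALS-16 and PALS-20 act as activators opposed by it. The gene pals-5 is used as the standard reporter of the response. For most of the other members no molecular role is established.

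The libraries held 29081819 and 35106597 counts in GW1183 mes-4(RNAi) larvae and 33272359 and 32593317 counts in wild type. The met-1 transcript was at 119.8 and 110.5 CPM (the count scaled by the library total) in GW1183 mes-4(RNAi) larvae, against 172.4 and 158.6 CPM in wild type. The mes-4 transcript was at 27.3 and 28.1 CPM, against 34.4 and 35.9 CPM. Both targeted transcripts were lower in each library of the first group without being absent. The count test DESeq2 (adjusted p under 0.05) called met-1 lower (adjusted p = 0.0039) and did not call mes-4 (adjusted p = 0.337). Of the markers of young larvae, lin-14 and lin-28 together held 282.2 and 277.6 CPM in GW1183 mes-4(RNAi) larvae and 293.8 and 285.95 CPM in wild type. Of the 5 genes listed as adult or embryo markers, 4 had both libraries of the first group above both of wild type. The other, vit-5, had 0 counts in every library. Over genes with a count, 26.6% lay higher in this way and 15.7% lower. Of the 4, the adult collagen gene col-19 stayed at or below 0.142 CPM and vit-2 had 9 reads or fewer in each library. The gene skn-1 was at 164.2 and 147.4 CPM in GW1183 mes-4(RNAi) larvae, against 132.15 and 120.9 CPM in wild type. The yolk gene vit-6, called higher by the count test DESeq2 (adjusted p under 0.05), was at 3.51 and 4.67 CPM in GW1183 mes-4(RNAi) larvae against 0.361 and 0.368 CPM in wild type. The 6 intestinal markers measured summed to 1917 and 1727 CPM in GW1183 mes-4(RNAi) larvae and 2172 and 1927.5 CPM in wild type, and DESeq2 called 0 of them. Of 5 body wall muscle markers DESeq2 called 1 higher, myo-3, at 629.2 and 1065 CPM in GW1183 mes-4(RNAi) larvae against 282.2 and 402.8 CPM in wild type. It called 0 markers of epidermis, neurons, germ cells or pharynx. Of 5 germ cell markers, 2 had both libraries of the first group above both of wild type and 2 had both below. The epidermal marker dpy-7 was at 7.70 and 0.627 CPM in GW1183 mes-4(RNAi) larvae, against 4.66 and 1.96 CPM in wild type, with overlap. The part of these markers in the PALS values was not tested. In whole larvae, fewer cells of a type and less RNA per cell cannot be told apart.

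The members lie at 11 loci, counted as separate where more than 4 other protein-coding genes stand between them. The largest is a cluster on chromosome I with 13 measured members, which runs from pals-13 through pals-2, pals-3, pals-12, pals-4, pals-8, pals-11, pals-7, pals-5, pals-9, pals-6 and pals-14 to pals-15. Chromosome III holds 3 loci. The first has 4 members, pals-24, pals-23, pals-22 and pals-25. The second has 6 measured members, pals-40, pals-20, pals-17, pals-16, pals-19 and pals-18. The third has pals-26, pals-27 and pals-28. The genes pals-29 and pals-30 are neighbours on chromosome IV, and pals-37, pals-39 and pals-38 are neighbours on chromosome V. The remaining 5 stand alone, pals-1 on chromosome I and pals-31, pals-32, pals-33 and pals-34 on chromosome V. Numbers thus follow position only in part.

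In wild type larvae the members fell into a small group of expressed genes and a large group near silence. Levels between genes are given as RPKM, the CPM per kilobase of gene model, as mean ± SD over 2 libraries. The repressor gene pals-17 had the highest mean level of the family, 19.7 ± 0.133 RPKM, followed by the activator gene pals-25 at 18.7 ± 0.434 RPKM. Next came 2 members whose roles are not established, pals-19 at 16.21 ± 4.20 RPKM and pals-18 at 13.9 ± 2.75 RPKM. The wild type libraries of pals-17 lay above those of pals-25, whereas those of pals-19 and pals-18 overlapped. The repressor gene pals-22 was at 9.204 ± 1.02 RPKM, pals-24 at 8.31 ± 0.94 RPKM and pals-23 at 7.86 ± 1.85 RPKM, and these 3 were not separated beyond their spread. All 7 are at the first and second loci of chromosome III, and they were the only 7 of the 36 members above the median wild type level of all 20392 genes, 3.46 RPKM.

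Below them came pals-26 at 3.39 ± 1.29 RPKM and pals-16 at 2.28 ± 1.21 RPKM, then pals-15, pals-14 and pals-27 at 1.43, 1.06 and 1.007 RPKM. The other 24 members had a mean wild type level under 1 RPKM, and 17 of them were under 0.5 RPKM. The reporter gene pals-5 was at 0.303 ± 0.0346 RPKM, which rests on 12 and 10 reads. The activator gene pals-20 rested on 4 reads in each wild type library, and pals-11 had 0 reads in both. The activator and repressor genes were therefore not equally expressed in wild type. In RPKM, pals-17 was 2.00 and 2.32 times as high as pals-22 in wild type replicates 1 and 2, pals-25 was 1.92 and 2.17 times as high as pals-22, and pals-16 and pals-20 were low.

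**Figure D1:**
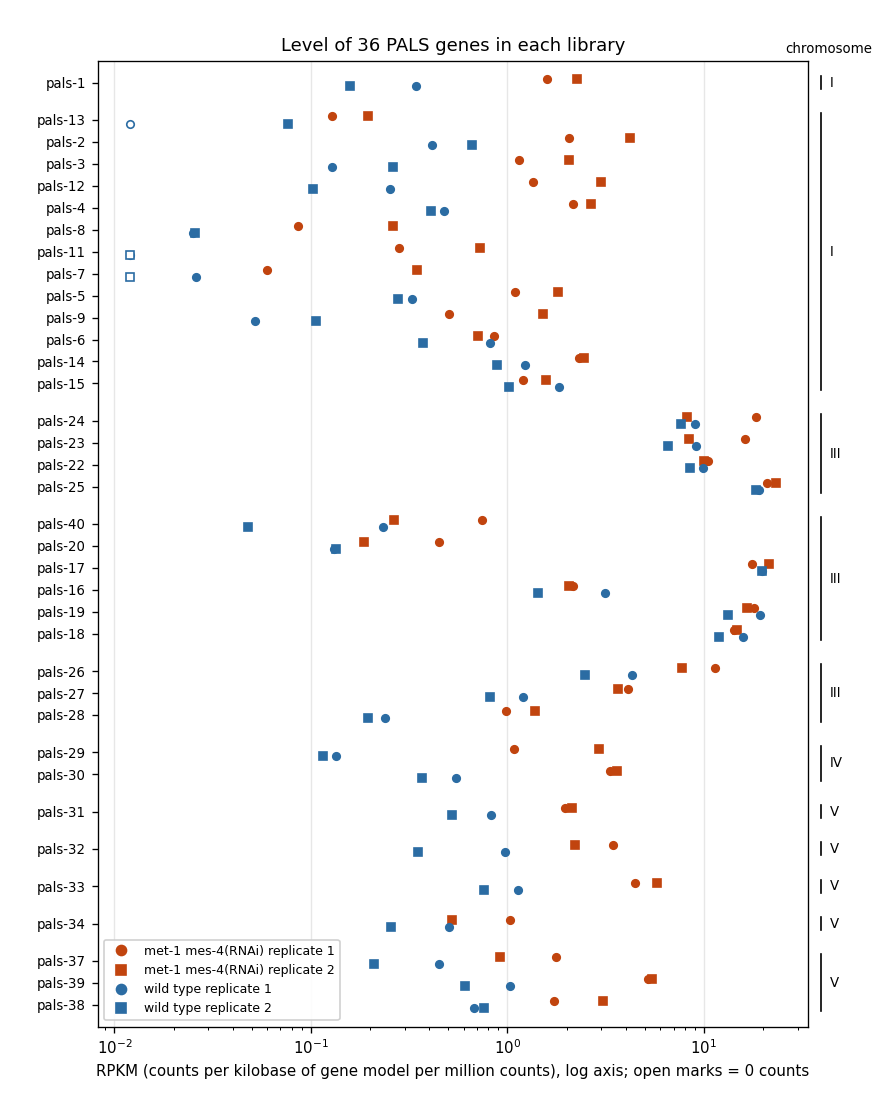
Level of each of the 36 members in each of the 4 libraries, in RPKM on a log axis, in chromosome order with a gap between loci; open marks stand for 0 counts. The 2 first loci of chromosome III sit at the right with both groups close together, apart from pals-16, pals-20 and pals-40, while most members elsewhere lie to the left in wild type and are shifted to the right in GW1183 mes-4(RNAi) larvae.

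The family's summed level was 188.5 and 180.8 CPM in GW1183 mes-4(RNAi) larvae, against 124.2 and 98.7 CPM in wild type, a 1.66-fold difference of the means without overlap. The sum hides a division by locus. The 4 genes at the pals-22 locus summed to 68.0 and 51.2 CPM in GW1183 mes-4(RNAi) larvae, against 48.3 and 42.1 CPM in wild type. The 6 genes at the pals-17 locus summed to 46.5 and 48.5 CPM, against 51.3 and 40.7 CPM, with the groups overlapping. The 13 genes of the chromosome I cluster summed to 16.3 and 25.98 CPM in GW1183 mes-4(RNAi) larvae, against 7.54 and 5.49 CPM in wild type, 3.24-fold higher. The pair on chromosome IV summed to 5.64 and 8.43 CPM, against 0.872 and 0.614 CPM, 9.47-fold higher. The pals-26 locus was 3.12-fold and the pals-37 locus 4.81-fold higher on the same measure.

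Of the 36 members, 33 had a higher mean CPM in GW1183 mes-4(RNAi) larvae than in wild type, against 61.0% of the 19152 genes with a count. In 28 members both GW1183 mes-4(RNAi) libraries lay above both wild type libraries, against 26.6% of genes, and in 0 members both lay below, against 15.7%. The mean was at least 2-fold higher in 26 members, against 15.4% of genes. The median log2 fold change of all 36, fitted without a filter on low counts, was 1.92, beside 0.03 over all genes.

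Single genes were tested with edgeR's quasi-likelihood test, with Benjamini-Hochberg adjustment over the 15008 genes that passed a filter on low counts, and a threshold of 0.05. It called 0 members, as it called 0% of all genes in either direction. At an unadjusted p under 0.05 it counted 19 members higher and 0 lower, against 7.74% and 6.82% of genes. The second count test, DESeq2, called 14 members higher and 0 lower, against 2.45% and 1.92% of genes. The edgeR adjusted p of those 14 ran from 0.0617 to 0.194. Of the 36 members 30 passed the filter, and 7 of these would not have passed on the wild type libraries alone. They are pals-34 and 6 of the 14 called genes, namely pals-1, pals-3, pals-9, pals-12, pals-28 and pals-29. Each of the 7 needed GW1183 mes-4(RNAi) libraries to be tested, so the counts over tested members lean towards rises. The fold changes and p-values given for them below carry the same limit. Leaving out a library cut DESeq2's count to 6 without GW1183 mes-4(RNAi) replicate 1, 2 without GW1183 mes-4(RNAi) replicate 2, 6 when wild type replicate 1 was dropped and 2 when replicate 2 of wild type was. Over all 15008 genes the calls of higher genes also fell, to 130, 101, 149 and 113 in these 4 fits in the same order, against 367 with all libraries. The gene pals-39 was called in all 4 of these fits.

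**Figure D2:**
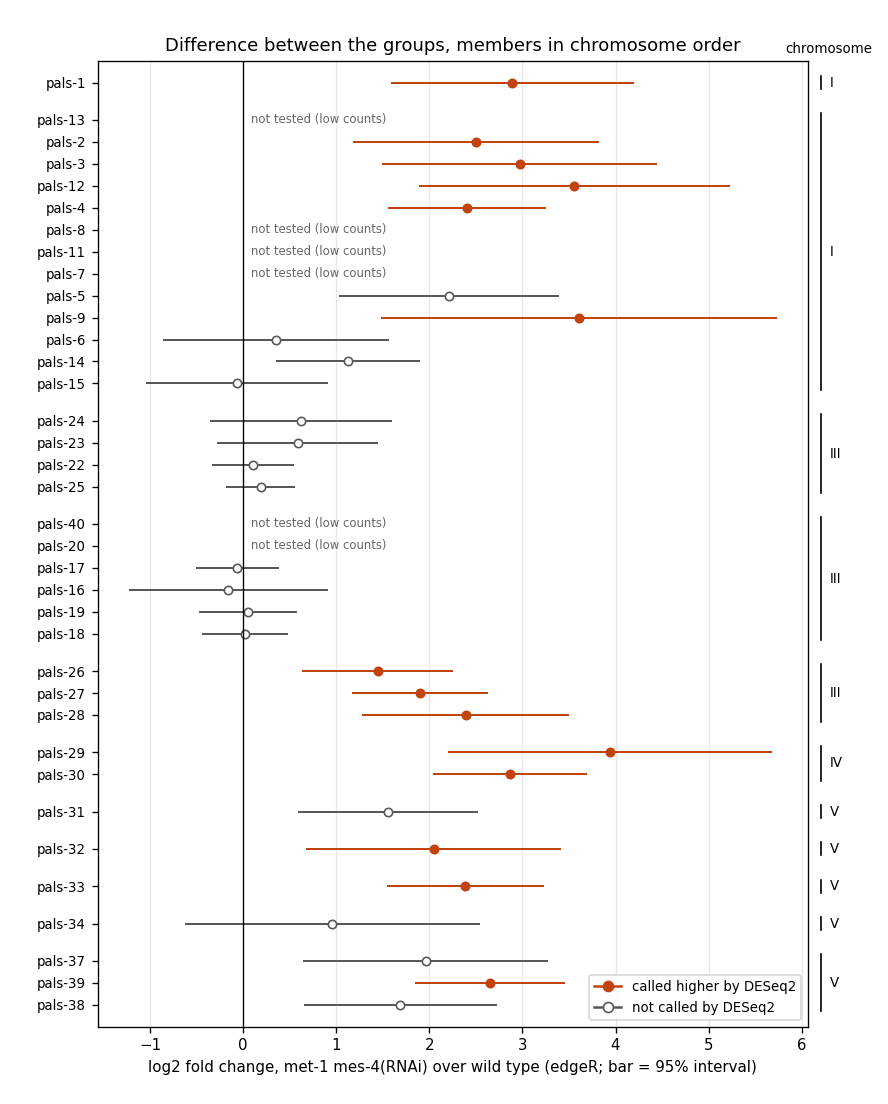
Log2 fold change (GW1183 mes-4(RNAi) over wild type, edgeR) of the 30 tested members with 95% intervals, in chromosome order; filled red points mark the 14 genes that DESeq2 called higher, and 6 members had too few counts to be tested. Intervals at the pals-22 and pals-17 loci all include 0, whereas the points of pals-26 to pals-30 and of the members on chromosome V all lie above it, with the interval of pals-34 including it.

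The regulators pals-22 and pals-25 differed little between the groups. The repressor gene pals-22 was at 9.28 and 8.92 CPM in GW1183 mes-4(RNAi) larvae, against 8.84 and 7.55 CPM in wild type. Both libraries of the first group were higher, the lower of them just above the higher wild type library. The log2 fold change was 0.10, with a 95% interval of -0.33 to 0.53 (edgeR adjusted p = 0.849, DESeq2 adjusted p = 0.993). The activator gene pals-25 was at 22.2 and 24.7 CPM in GW1183 mes-4(RNAi) larvae, against 20.2 and 19.6 CPM in wild type. Again both libraries were higher, and the log2 fold change was 0.19, with an interval of -0.17 to 0.55 (edgeR adjusted p = 0.614, DESeq2 adjusted p = 0.913). The intervals of both genes end below a 2-fold rise. They do not show that the levels were equal.

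The balance of the 2 regulators was also close between the groups. In RPKM, pals-25 was 2.01 and 2.32 times as high as pals-22 in GW1183 mes-4(RNAi) larvae, against 1.92 and 2.17 times in wild type. The ratio of the reporter gene pals-5 to pals-22 was 0.105 and 0.181 in GW1183 mes-4(RNAi) larvae, against 0.0330 and 0.0328 in wild type. That is a difference of 2.06 on the log2 scale, without overlap. An exact permutation test of this log2 ratio (two-sided) gave p = 0.333, the smallest p that 2 libraries against 2 can give, so this test could not pass 0.05 here. The edgeR intervals of the 2 genes, 1.04 to 3.38 for pals-5 and -0.33 to 0.53 for pals-22, did not overlap. They are intervals of single genes, not adjusted over all genes, and do not test the ratio. The difference in the ratio of pals-25 to pals-22 was 0.08 on the log2 scale. Its exact permutation test (p = 0.667) could not pass 0.05 either, so it does not show that the balance was equal.

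The regulators at the second locus of chromosome III differed in how well they were measured. The repressor gene pals-17 was at 15.3 and 18.6 CPM in GW1183 mes-4(RNAi) larvae, against 17.2 and 17.1 CPM in wild type. The wild type libraries lay between those of the first group, and the log2 fold change was -0.06 with an interval of -0.50 to 0.37. The activator gene pals-16 was at 2.41 and 2.31 CPM in GW1183 mes-4(RNAi) larvae, against 3.52 and 1.60 CPM in wild type. Here the wild type libraries differed most, and the log2 fold change of -0.16 had an interval of -1.22 to 0.90. The activator gene pals-20 had 12 and 6 reads in GW1183 mes-4(RNAi) larvae, against 4 and 4 reads in wild type, and was not tested. In the annotation 502 of its 988 exon bases lie opposite Y82E9BR.5, so its reads may belong to either gene if counting ignored the strand.

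Neither edgeR nor DESeq2 called any of the remaining members of these 2 loci. The adjacent genes pals-18 and pals-19 had log2 fold changes of 0.02 and 0.05. The sign of pals-15, pals-16, pals-17, pals-18 and pals-19 turned when single libraries were left out, so no direction can be given for them. The genes pals-23 and pals-24 had log2 fold changes of 0.58 and 0.62, and both values were much lower without 1 library. In CPM, pals-24 was at 17.6 and 7.83 in GW1183 mes-4(RNAi) larvae, against 8.54 and 7.27 in wild type. Without GW1183 mes-4(RNAi) replicate 1 its log2 fold change was -0.0256, and that of pals-23 was 0.08. The low-level gene pals-40 had 14 and 6 reads in GW1183 mes-4(RNAi) larvae, against 5 and 1 reads in wild type.

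The reporter gene pals-5 was higher in each library of the first group without being called. It was at 1.204 and 1.99 CPM in GW1183 mes-4(RNAi) larvae, against 0.361 and 0.307 CPM in wild type, a 4.79-fold difference of the means. The log2 fold change was 2.21, with an interval of 1.04 to 3.38 (edgeR adjusted p = 0.135, DESeq2 adjusted p = 0.0735). Its neighbours in the chromosome I cluster included members with larger differences. The gene pals-12 was at 1.62 and 3.56 CPM in GW1183 mes-4(RNAi) larvae, against 0.301 and 0.123 CPM in wild type. The gene pals-3 was at 1.34 and 2.39 CPM, against 0.150 and 0.307 CPM. In the annotation used here, 1185 of the 1191 exon bases of pals-12 also lie in exons of pals-3. The deposited length of pals-3, 1169 bases, is shorter than this overlap, so the counted model of pals-3 differs from the annotated one. How far pals-12 and pals-3 shared reads was not tested. Their log2 fold changes were 3.56 (SE 0.65) and 2.97 (SE 0.58), and DESeq2 called both (adjusted p = 0.000793 and 0.0106).

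DESeq2 called 3 more members of the cluster. The gene pals-9 was at 0.585 and 1.77 CPM in GW1183 mes-4(RNAi) larvae, against 0.0601 and 0.123 CPM in wild type, that is 17 and 62 reads against 2 and 4. The gene pals-2 was at 2.41 and 4.87 CPM, against 0.481 and 0.767 CPM, and pals-4 at 2.61 and 3.22 CPM, against 0.571 and 0.491 CPM. No wild type library reached a GW1183 mes-4(RNAi) library in any of the 3. The log2 fold changes were 3.61 (SE 0.83), 2.50 (SE 0.51) and 2.405 (SE 0.33), with DESeq2 adjusted p of 0.0352, 0.00397 and 0.00142. Leaving out single libraries moved the value of pals-9 between 2.54 and 4.21 and that of pals-12 between 2.83 and 4.29.

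The quietest members of the cluster also had more reads in the first group. The gene pals-11 had 8 and 25 reads in GW1183 mes-4(RNAi) larvae and 0 in both wild type libraries, at least 11.3-fold higher when wild type is set to 3 counts over the group. The gene pals-7 had 2 and 14 reads, against 1 and 0, a ratio of 16.42 with an exact 95% interval of 2.55 to 688.5. The gene pals-8 had 3 and 11 reads, against 1 and 1, a ratio of 7.18 (1.65 to 65.1). These intervals cover counting error only. The gene pals-13, at the end of the cluster, had 6 and 11 reads, against 0 and 4.

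At the other end of the cluster, the genes pals-6, pals-14 and pals-15 follow pals-9 in this order along the chromosome. Their log2 fold changes were 0.36, 1.12 and -0.07, with intervals of -0.85 to 1.56, 0.36 to 1.89 and -1.04 to 0.90, and none was called by either test. Both libraries of the first group were above both of wild type for pals-14, and the groups overlapped for pals-6 and pals-15. Without wild type replicate 2 the value of pals-6 was -0.0755, so no direction can be given for it. In wild type pals-15 and pals-14 had the highest mean levels of the cluster per length, 1.43 ± 0.574 and 1.06 ± 0.241 RPKM, and pals-6 at 0.593 ± 0.313 RPKM was not separated from pals-2 at 0.536 ± 0.174 RPKM. The 3 protein-coding genes next along the chromosome are F22G12.3, with 3 reads or fewer in each library, and F22G12.4 and F22G12.5, which are not PALS genes and had log2 fold changes of -0.36 and -0.34.

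Every member on chromosomes IV and V was higher in both libraries of the first group than in both of wild type. On chromosome IV, pals-29 was at 1.44 and 3.90 CPM in GW1183 mes-4(RNAi) larvae, against 0.180 and 0.153 CPM in wild type. Its neighbour pals-30 was at 4.20 and 4.53 CPM, against 0.691 and 0.460 CPM. The pals-29 libraries of the first group differed 2.70-fold from each other, those of pals-30 1.08-fold. The log2 fold change was 3.94 (SE 0.68) for pals-29, the largest of the 30 tested members, and 2.87 (SE 0.32) for pals-30. DESeq2 called both (adjusted p = 0.000235 and 2.09e-06), and edgeR neither (adjusted p = 0.102 and 0.0617). Of this pair, pals-29 was tested only with the help of the first group's libraries.

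On chromosome V, pals-39 was at 7.60 and 7.92 CPM in GW1183 mes-4(RNAi) larvae, against 1.503 and 0.890 CPM in wild type. It had the smallest DESeq2 adjusted p of the family, 2.58e-08, with a log2 fold change of 2.65 (SE 0.31) and an edgeR adjusted p of 0.0687. Its neighbours pals-37 and pals-38 had log2 fold changes of 1.96 and 1.69 and just missed DESeq2's threshold (adjusted p = 0.0574 and 0.0577). In the annotation an antisense RNA gene, anr-30, lies opposite 925 of the 2351 exon bases of pals-37. Of the lone genes on this chromosome, DESeq2 called pals-32 (2.05) and pals-33 (2.39) and did not call pals-31 (1.56) and pals-34 (0.96), the values being log2 fold changes. The lone gene of chromosome I, pals-1, was at 1.55 and 2.19 CPM in GW1183 mes-4(RNAi) larvae, against 0.331 and 0.153 CPM in wild type. Its log2 fold change of 2.89 (SE 0.51) was called by DESeq2 (adjusted p = 0.00799).

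The third locus of chromosome III went with these genes and not with the other loci of its chromosome. The 3 neighbours pals-26, pals-27 and pals-28 had log2 fold changes of 1.44, 1.90 and 2.39, and DESeq2 called each (adjusted p = 0.00263, 0.00045 and 0.0486). The gene pals-28 was at 1.24 and 1.74 CPM in GW1183 mes-4(RNAi) larvae, against 0.301 and 0.245 CPM in wild type. The gene pals-26 was the only called member whose wild type level, 3.39 RPKM, came near the median of all genes.

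Numbered and physical neighbours were compared by the absolute difference between their log2 fold changes. The median over the 16 pairs of consecutive numbers at the same locus was 0.46, and over the 8 pairs of consecutive numbers at different loci 0.87. Over the 13 pairs that are next to each other on the chromosome it was 0.69, and over all 435 pairs of tested members 1.33. Among the adjacent pairs, those at the pals-22 and pals-17 loci ran from 0.03 to 0.21. Those in the chromosome I cluster ran from 0.59 to 3.25. Pairs share genes and libraries and may share reads, so these medians are a description. Pairs under 0.1 were pals-18 and pals-19 (0.03), pals-23 and pals-24 (0.04), pals-17 and pals-18 (0.08), pals-22 and pals-25 (0.09) and pals-16 and pals-17 (0.09) at the regulator loci, and pals-15 and pals-16 (0.09) at different loci. Farthest apart were the adjacent genes pals-9 and pals-6 in the chromosome I cluster, at 3.25. Consecutive numbers also parted within that cluster at pals-5 and pals-6 (1.86). Between loci they were farthest apart at pals-28 and pals-29 (1.55), pals-33 and pals-34 (1.43) and pals-30 and pals-31 (1.31). The pair pals-25 and pals-26 came next (1.26).

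Other protein-coding genes inside these clusters, or among the 3 nearest on either side, differed less where they were tested. Of 46 such genes among the counted genes, 24 were tested, with a median log2 fold change of 0.12. DESeq2 called 1 of them higher and 0 lower, against 2.45% and 1.92% of all genes. That gene, C29F9.6, which was named after its value was seen, lies near pals-24. It was at 5.71 and 7.49 CPM in GW1183 mes-4(RNAi) larvae, against 2.55 and 2.88 CPM in wild type. In the chromosome I cluster and the chromosome IV pair, only genes on either side were tested. Inside the pair, T27E7.9 had 8 and 12 reads, against 0 and 1 in wild type. Inside the cluster, C17H1.2 had 1 and 11 reads, against 0 and 1, and Y26D4A.21 had 10 and 4, against 10 and 0. Of the 46 genes, 13 had both libraries of the first group above both of wild type, and 3 had both below. The shares over genes with a count were 26.6% and 15.7%.

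The replicates of GW1183 mes-4(RNAi) larvae differed by locus. In the chromosome I cluster, replicate 2 was above replicate 1 in 12 of 13 members, by 3.02-fold for pals-9, 2.20-fold for pals-12 and 2.02-fold for pals-2. At the pals-22 locus replicate 2 was higher for pals-25 alone, and for pals-23 and pals-24 it was 0.520 and 0.446 times replicate 1. Over all genes with a count, replicate 2 was the higher in 40.7%. In wild type, replicate 2 lay below replicate 1 in 28 of 36 members, against 54.6% of genes. Paired by number, 31 of 36 members were higher in GW1183 mes-4(RNAi) larvae in both replicates and 0 were lower in both. For comparison, 41.0% of genes were higher in both.

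**Figure D3:**
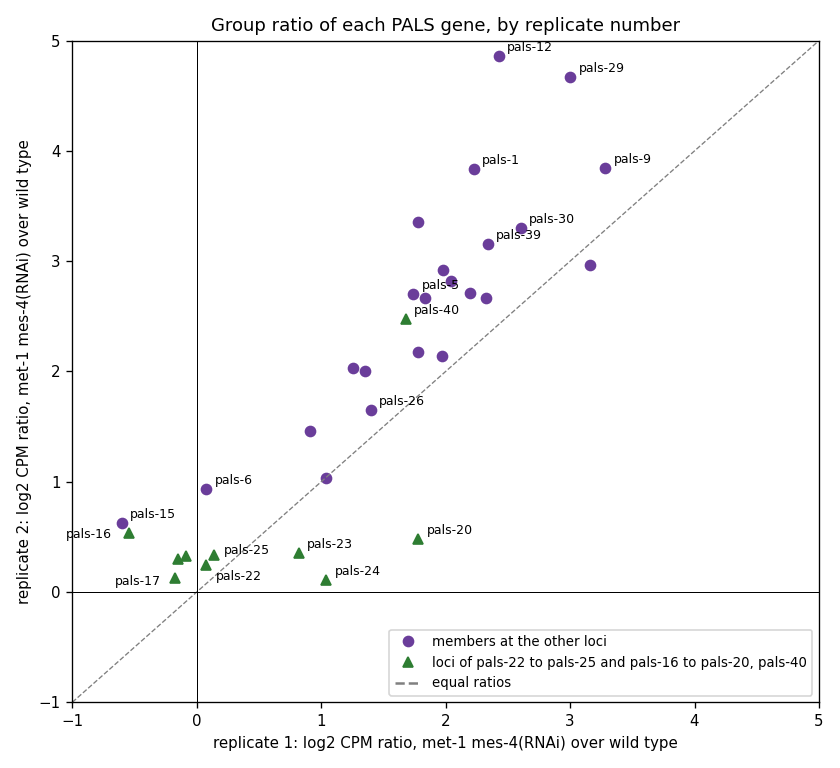
Log2 CPM ratio of GW1183 mes-4(RNAi) over wild type for replicate 1 (horizontal axis) against replicate 2 (vertical axis), 1 point per member; triangles mark the loci of pals-22 and pals-17, the dashed line marks equal ratios, and pals-7, pals-11 and pals-13 are left out because a wild type library had 0 counts. Most circles lie well above 0 on both axes and above the dashed line, while pals-22, pals-25 and pals-17 lie close to 0 on both.

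Other genes of the response were set beside the family. The list held 21 names, of which 3 turned out to be sequence names of pals-26, pals-28 and pals-32 and 1 could not be matched, leaving 17 genes that are not PALS genes. Of these, 15 were higher in both GW1183 mes-4(RNAi) libraries than in both wild type libraries and 0 lower, against 26.6% and 15.7% of all genes with a count. DESeq2 called 3 of the 15 tested genes higher and 0 lower, against 2.45% and 1.92% of all genes, and edgeR called 0. Without any 1 of the 4 libraries DESeq2 called 0. The median log2 fold change of the tested genes was 0.98, beside 0.01 over all 15008 genes. Some of the tested genes, among them chil-27, fbxa-75 and trpl-5, would not have passed the filter on the wild type libraries alone. The gene whose value is the median was another of them. Each needed GW1183 mes-4(RNAi) libraries to be tested, so this median leans towards rises. The values given for chil-27 below carry the same limit.

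The called genes were cul-6, eol-1 and fbxa-158. The cullin gene cul-6, which encodes the scaffold of a ubiquitin ligase of the response, was at 27.1 and 25.9 CPM in GW1183 mes-4(RNAi) larvae, against 15.9 and 11.97 CPM in wild type (log2 fold change 0.88, DESeq2 adjusted p = 0.00524). The gene eol-1, related to RNA decapping enzymes, was at 3.40 and 3.70 CPM, against 1.05 and 0.706 CPM (1.97, adjusted p = 0.00428). The F-box gene fbxa-158, a substrate adaptor gene of that ligase, was at 3.30 and 2.56 CPM, against 0.842 and 0.491 CPM (2.08, adjusted p = 0.01). The Skp-related adaptor genes skr-3, skr-4 and skr-5 had log2 fold changes of 0.43, 0.79 and 1.04 and were not called. The chitinase-like gene chil-27, a marker of the response to oomycetes, was at 0.516 and 1.28 CPM in GW1183 mes-4(RNAi) larvae, against 0.120 and 0.0307 CPM in wild type (3.48, DESeq2 adjusted p = 0.0883).

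**Figure D4:**
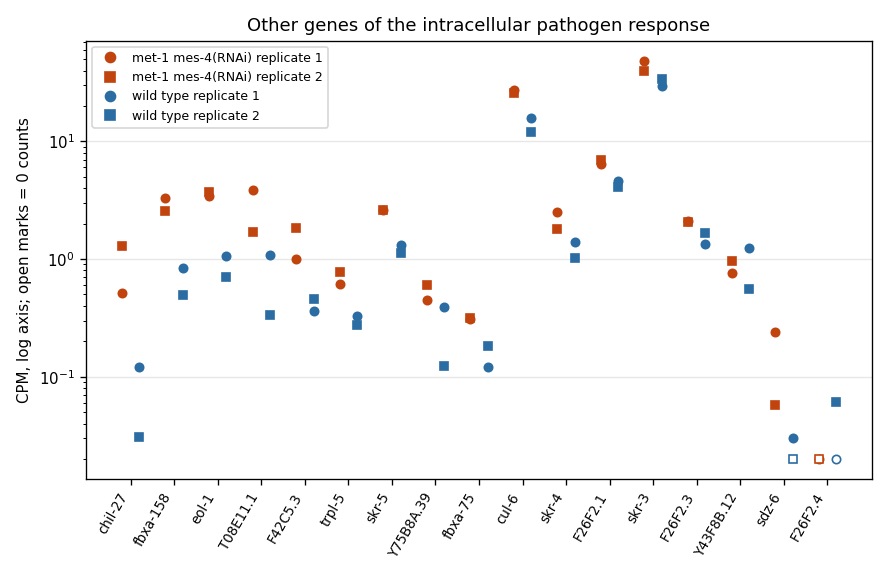
CPM on a log axis of 17 further genes of the intracellular pathogen response in each library, GW1183 mes-4(RNAi) left of wild type within each gene, ordered by fold change with the 2 untested genes last; open marks stand for 0 counts. Groups overlap for Y43F8B.12 and F26F2.4 and are separate for the other 15.

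Known regulators of the response outside the family were not called. The bZIP factor gene zip-1, an activator, was at 43.1 and 30.3 CPM in GW1183 mes-4(RNAi) larvae, against 49.6 and 33.4 CPM in wild type, with overlap. The RIG-I-like receptor gene drh-1, which senses viral RNA, was at 47.8 and 43.7 CPM, against 33.2 and 34.0 CPM, without overlap (log2 fold change 0.39, edgeR adjusted p = 0.24, DESeq2 adjusted p = 0.273). The log2 fold changes of the repressor genes pnp-1, lin-35 and sta-1 and of rcs-1 ran from -0.13 to 0.10.

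Heat stress is a known trigger of the response, so its markers were measured beside it. The small heat shock gene hsp-16.2 was at 135.4 and 57.8 CPM in GW1183 mes-4(RNAi) larvae, against 32.2 and 18.1 CPM in wild type, and hsp-16.41 at 72.2 and 35.98 CPM, against 19.6 and 11.6 CPM. DESeq2 called both (adjusted p = 0.00017 and 0.00018). The chaperone gene hsp-70 was at 14.5 and 3.68 CPM, against 3.55 and 1.78 CPM, and was not called. The list of 5 markers summed to 222.2 and 97.4 CPM in GW1183 mes-4(RNAi) larvae and 55.3 and 31.5 CPM in wild type. Its other 2 genes, hsp-16.1 and hsp-16.48, had 0 counts in every library. Whether these 2 were silent or their reads were lost in counting was not tested. In the first group this sum was higher in replicate 1, as were the PALS sums at the pals-22 and pals-26 loci and over the family, while those of the chromosome I cluster, the pals-17 locus, the chromosome IV pair and the pals-37 locus were higher in replicate 2. The part of heat stress in the PALS values was not tested.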

How the data were processed

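Libraries were made from 5 µg of total RNA with a ScriptSeq kit, per the labels' protocols. The authors deposited raw counts per gene with gene model lengths, and a table of log2 values. Each log2 value equalled log2(count × library factor + 8), worked out from the values. The build ce10 comes from the submitters' processing notes. The sources used here do not name the aligner, the counting program, the annotation or the strand setting. Reads shared by near-identical or overlapping genes may therefore be split or lost. Symbols and gene order came from Ensembl's WBcel235 annotation, another build, so no coordinates are printed.

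CPM and RPKM used library totals. Genes were filtered with filterByExpr (15008 left), scaled by TMM and tested with edgeR 4.0.16 in R 4.3.3, without a block. DESeq2 1.42.0 (Wald test, default filtering) was the second test; it left 291 adjusted p as NA. SE is the fold change over the square root of F, and 95% intervals use its degrees of freedom. The biological coefficient of variation was 22.05%, against which depth adds little except at low counts. The procedure was tested on simulated data. Alternatives were other scalings and filters, DESeq2, limma 3.58.1, a replicate block and leaving out each library. Members, lists, rules and tests were chosen with earlier results of these data known. Every member is named. Values per library are given for pals-22, pals-25, pals-16, pals-17, pals-20, pals-5 and the 10 tested members with the largest fold changes; for others they were chosen afterwards. P-values measure the spread between these libraries only. Symbols matched 19182 identifiers. Figures used matplotlib 3.10.9.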

Additional observations from a re-analysis of the deposited data

How the results depend on the processing

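Of the members, edgeR called 0 as higher in the fit reported, also with RLE factors, library size only, the 5 CPM filter, limma-voom and limma on the deposited log2 values. It called 3 without a filter, against 88 of all 19152 genes. DESeq2 called 14, against 367 of all 15008 genes. DESeq2's 14 became 3 with a filter of 5 CPM in 2 libraries, which kept only 10 members, and 2 to 6 when 1 library was left out. The median log2 fold change of the tested members was 0.43 with that filter and 1.53 to 2.03 in the other fits. Over all genes, DESeq2 called 253 of 9939 higher with the filter of 5 CPM. Of the other IPR genes, edgeR called 0. DESeq2 called 3, but 1 with the filter of 5 CPM and 0 without any 1 library, and their median was 0.61 with that filter. Of the members, 0 were called lower in any fit.

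With the replicate number as a block, edgeR called 20 members and 9 other IPR genes higher, and 1540 of all 15008 genes, against 0 without it. The 20 include pals-23 (0.55, edgeR adjusted p = 0.0293). DESeq2 with the block called 17 members, 5 other IPR genes and 696 of all genes higher. The labels do not say that a number marks a shared batch or day, and with 2 pairs the pairing cannot be shown. Libraries of the same number deviated together (correlation 0.646 across genes). A fit leaving a group with 1 library assumes that it varies like the other group.

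Directions turned for some genes. On the deposited log2 values the log2 fold change was 0.0078 for pals-15 and 0.0217 for Y43F8B.12. When 1 library was left out, it ranged from -0.0755 to 0.99 for pals-6, -0.41 to 0.37 for pals-15, -0.59 to 0.48 for pals-16, -0.25 to 0.10 for pals-17, -0.14 to 0.20 for pals-18, -0.16 to 0.31 for pals-19, -0.0256 to 1.07 for pals-24 and -0.52 to 0.57 for Y43F8B.12. The cause was not tested.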
